A study of Mus musculus with 23 samples.

Results

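The immunoglobulin variable (V) gene segments were described in bulk RNA-seq of mouse colon. A segment was taken when its symbol began with *Ighv* (heavy chain), *Igkv* (kappa light chain) or *Iglv* (lambda light chain) and when its estimated read counts, summed over the 23 libraries, reached 50. This held for 160 of the 348 V genes among the 55449 genes of the table, namely 83 of 185 *Ighv*, 74 of 160 *Igkv* and all 3 *Iglv* genes. Because measured counts chose the segments, their being expressed is not a finding. Of the other V genes, 138 had 0 counts in every library and 50 stayed below the minimum. The segments just inside the minimum were *Ighv1-84* with 50.2 summed counts, *Igkv14-130* with 55 and *Ighv13-2* with 56, and those just outside were *Igkv1-122* with 48.0, *Igkv7-33* with 44 and *Igkv1-99* with 41. The 160 segments held 99.6% of all V counts. The annotation lists 159 of them as V genes and *Ighv1-2* as a V pseudogene.

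The study compared colon of male C57BL/6 mice of genotype Cdx2Apc f/w, in which 1 floxed *Apc* allele is removed by Cre under the *Cdx2* promoter, which is active in the epithelium of the distal gut. All mice started at 6 to 8 weeks of age, received a short course of neomycin, streptomycin and bacitracin in the drinking water, ate a diet with 60% fat and were gavaged repeatedly with *Bacteroides fragilis* 638R that either lacked high bile salt hydrolase activity (BSHlow, bsh- in the labels) or carried it (BSHhigh, bsh+). Normal colon was taken after 2 weeks (4 BSHlow and 4 BSHhigh libraries), and non-tumor colon (4 and 4) and tumors (4 BSHlow and 3 BSHhigh) were taken after 12 weeks. No group lacked bacteria, the high-fat diet or the *Apc* allele. The labels do not say whether non-tumor and tumor libraries came from the same mice, nor whether each library was 1 mouse, so p-values measure the spread between libraries. The 3 BSHhigh tumor columns carried no replicate numbers of their own and are called a, b and c.

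Library totals ran from 12401388 to 17903008 counts. Levels are given as CPM, read counts brought to a common library size with edgeR's TMM factors. In bulk tissue, fewer cells of a type and less RNA per cell cannot be told apart. Smooth muscle markers summed to 7.08 to 206 CPM at 2 weeks, 1513 to 8467 CPM in non-tumor colon and 117 to 343 CPM in tumors, so the 3 tissues also differed in other cell types; their part in the V levels was not tested.

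An antibody is built from heavy and light chains. In a developing B cell, the RAG recombinase joins 1 of many V segments to a joining segment (and, in the heavy chain, a diversity segment), and the joined V is transcribed in 1 RNA with the constant region. V reads therefore come from B cells and, above all, from plasma cells, which in the colon mostly secrete IgA. IgA dimers are held together by the J chain and carried across the epithelium by the receptor encoded by *Pigr*. When 1 B cell clone expands, its V segments take a larger share of the V reads.

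Near-identical segments limit how exactly each one can be counted, so 3 pairs that matter below are shown. Each is the last 300 bases of the coding sequence, 5′ to 3′, from the GENCODE M21 annotation of GRCm38 (mm10), the C57BL/6 reference, and coordinates span the whole coding region. Capitals mark the bases at which the members of a pair differ. *Igkv1-110* (chr6:68270527-68271267, plus strand) and *Igkv1-117* (chr6:68121091-68121827, plus strand), the kappa segments most often at the top of a library, differ at 10 of 359 bases.
Igkv1-110: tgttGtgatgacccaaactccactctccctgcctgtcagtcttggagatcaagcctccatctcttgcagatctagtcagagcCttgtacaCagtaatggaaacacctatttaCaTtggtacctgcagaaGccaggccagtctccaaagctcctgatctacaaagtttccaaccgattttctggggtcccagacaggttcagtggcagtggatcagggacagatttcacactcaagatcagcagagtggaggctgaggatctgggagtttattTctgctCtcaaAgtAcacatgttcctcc
Igkv1-117: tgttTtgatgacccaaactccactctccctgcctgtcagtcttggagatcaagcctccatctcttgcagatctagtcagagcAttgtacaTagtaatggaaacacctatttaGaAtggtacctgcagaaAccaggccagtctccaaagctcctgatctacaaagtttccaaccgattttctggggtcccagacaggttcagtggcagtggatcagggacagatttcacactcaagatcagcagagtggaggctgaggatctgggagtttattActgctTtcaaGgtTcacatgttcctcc
*Igkv10-96* (chr6:68631963-68632430, minus strand), the kappa segment with the most counts, and *Igkv10-94* (chr6:68704508-68704978, minus strand) differ at 16 of 347 bases.
Igkv10-96: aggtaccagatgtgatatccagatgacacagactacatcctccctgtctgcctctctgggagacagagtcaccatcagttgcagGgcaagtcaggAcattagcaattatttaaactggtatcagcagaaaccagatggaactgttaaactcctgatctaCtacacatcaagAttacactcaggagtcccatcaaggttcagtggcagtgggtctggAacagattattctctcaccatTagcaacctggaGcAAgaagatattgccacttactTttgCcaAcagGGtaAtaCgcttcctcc
Igkv10-94: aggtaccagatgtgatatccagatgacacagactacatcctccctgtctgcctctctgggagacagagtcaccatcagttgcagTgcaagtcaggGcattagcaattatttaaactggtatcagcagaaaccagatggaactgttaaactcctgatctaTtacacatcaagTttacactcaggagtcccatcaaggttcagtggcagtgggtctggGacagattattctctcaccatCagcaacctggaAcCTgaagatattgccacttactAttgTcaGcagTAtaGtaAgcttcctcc
*Iglv1* (chr16:19085017-19085460, minus strand), which held most lambda counts, and *Iglv2* (chr16:19260401-19260844, minus strand) differ at 11 of 351 bases, 8 of them shown.
Iglv1: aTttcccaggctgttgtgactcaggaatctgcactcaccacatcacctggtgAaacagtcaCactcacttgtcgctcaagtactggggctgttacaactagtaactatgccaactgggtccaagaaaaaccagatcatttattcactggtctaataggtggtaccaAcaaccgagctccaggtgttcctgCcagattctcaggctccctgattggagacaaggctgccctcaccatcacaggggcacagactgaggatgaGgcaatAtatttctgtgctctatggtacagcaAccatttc
Iglv2: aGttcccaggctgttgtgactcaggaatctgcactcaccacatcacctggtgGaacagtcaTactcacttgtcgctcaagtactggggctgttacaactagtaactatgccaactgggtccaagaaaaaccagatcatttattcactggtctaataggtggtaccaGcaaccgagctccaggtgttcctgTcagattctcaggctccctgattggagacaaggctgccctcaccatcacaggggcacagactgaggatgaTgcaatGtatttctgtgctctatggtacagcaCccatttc
Nearly all of what is shown is the V exon, and in *Igkv10-96* and *Igkv10-94* the first bases belong to the leader exon, joined as in the mature RNA.

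For these pairs the authors' estimates split reads between the partners. Counts of *Igkv1-110*, *Igkv1-117*, *Igkv10-96* and *Igkv10-94* were not whole numbers in 19 of the 23 libraries, and those of *Iglv1* and *Iglv2* in 11. Over all 160 segments, 16.2% of values were not whole (to within 0.001), against 4.24% of all values of the table. The 18 segments with counts that were not whole in 10 or more libraries had a median identity of 96.9% to their nearest V segment. The 54 segments with whole counts in every library had a median identity of 90.5% and a highest of 98.9%. Their values show no such split, although a whole count does not exclude reads that match several segments.

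*Ighv8-12* and *Ighv1-72* had the most counts of the *Ighv* segments, and *Ighv1-53* the largest fold change of the *Ighv* segments called between tumors, so the last 300 coding bases of these are shown too. Capitals mark the last match to TANTANTGT (read on the coding strand only), a motif at the 3′ end of the V exon that encodes the conserved cysteine before the third complementarity-determining region. *Ighv8-12* lies at chr12:115647945-115648387, *Ighv1-53* at chr12:115158403-115158835 and *Ighv1-72* at chr12:115757984-115758416, all on the minus strand.
Ighv8-12: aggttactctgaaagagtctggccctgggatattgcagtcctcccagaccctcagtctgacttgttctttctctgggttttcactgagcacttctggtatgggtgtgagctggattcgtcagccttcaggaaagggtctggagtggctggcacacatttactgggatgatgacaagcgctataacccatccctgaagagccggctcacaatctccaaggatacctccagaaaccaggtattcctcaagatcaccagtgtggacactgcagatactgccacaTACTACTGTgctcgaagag
Ighv1-53: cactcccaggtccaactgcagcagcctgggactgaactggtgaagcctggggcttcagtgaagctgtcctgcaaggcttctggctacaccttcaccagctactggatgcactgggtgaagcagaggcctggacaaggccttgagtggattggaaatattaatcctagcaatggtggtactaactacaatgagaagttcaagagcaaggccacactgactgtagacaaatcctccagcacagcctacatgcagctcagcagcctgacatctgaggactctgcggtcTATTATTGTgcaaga
Ighv1-72: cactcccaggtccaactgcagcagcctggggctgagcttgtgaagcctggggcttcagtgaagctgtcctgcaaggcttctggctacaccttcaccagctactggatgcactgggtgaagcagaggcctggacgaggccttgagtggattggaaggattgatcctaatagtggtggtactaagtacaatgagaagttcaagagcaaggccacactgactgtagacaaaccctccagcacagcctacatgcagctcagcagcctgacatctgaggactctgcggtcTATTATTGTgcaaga
Of the 82 *Ighv* segments with a coding sequence, 63 (76.8%) held the motif, at a median of 6 bases from the 3′ end, and 42 of 74 *Igkv* segments held it. *Ighv1-53* differs from *Ighv1-72* at 16 of 351 bases, and *Ighv1-72* differs from *Ighv1-62-3*, a segment below the minimum count, at only 3.

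V RNA was highest on average in non-tumor colon at 12 weeks, lower in normal colon at 2 weeks and in BSHhigh tumors, and near 0 in BSHlow tumors. The summed *Ighv* level was 2.13, 0.564, 4.15 and 0.0733 CPM in BSHlow tumors and 46.6, 42.0 and 61.6 CPM in BSHhigh tumors. In non-tumor colon it was 1033, 449, 237 and 65.9 CPM in BSHlow and 306, 254, 242 and 891 CPM in BSHhigh mice. At 2 weeks it was 35.3, 26.5, 50.2 and 63.9 CPM in BSHlow and 21.1, 31.2, 85.7 and 25.5 CPM in BSHhigh mice. In summed *Ighv*, every BSHhigh tumor stood above every BSHlow tumor and below every non-tumor library of either arm. The BSHhigh and BSHlow libraries overlapped in non-tumor colon and at 2 weeks. For *Iglv* that order did not hold throughout, since BSHlow non-tumor library 4 (10.2 CPM) lay below BSHhigh tumors a and c (13.6 and 14.6 CPM).

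The kappa and lambda segments were likewise lowest in BSHlow tumors. Summed *Igkv* was 3.14, 0.462, 5.67 and 0.0977 CPM in BSHlow tumors and 84.2, 74.0 and 101 CPM in BSHhigh tumors, a difference of 6.16 in mean log2(CPM + 0.1) (pooled SD 1.75), beside 5.60 (pooled SD 1.59) for *Ighv*. Summed *Iglv* was 0.687, 0, 0.715 and 0 CPM in BSHlow tumors and 13.6, 5.94 and 14.6 CPM in BSHhigh tumors, a difference of 5.24 (pooled SD 1.42). None of these groups overlapped. At 2 weeks, *Iglv* was 5.16, 6.67, 5.21 and 4.99 CPM in BSHlow and 15.2, 7.80, 17.9 and 8.57 CPM in BSHhigh mice, the 1 locus and time at which the arms of normal colon did not overlap, with a difference of 1.07 (pooled SD 0.44). These sums are descriptions with no test, since the segments were chosen on their counts.

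**Figure D1:**
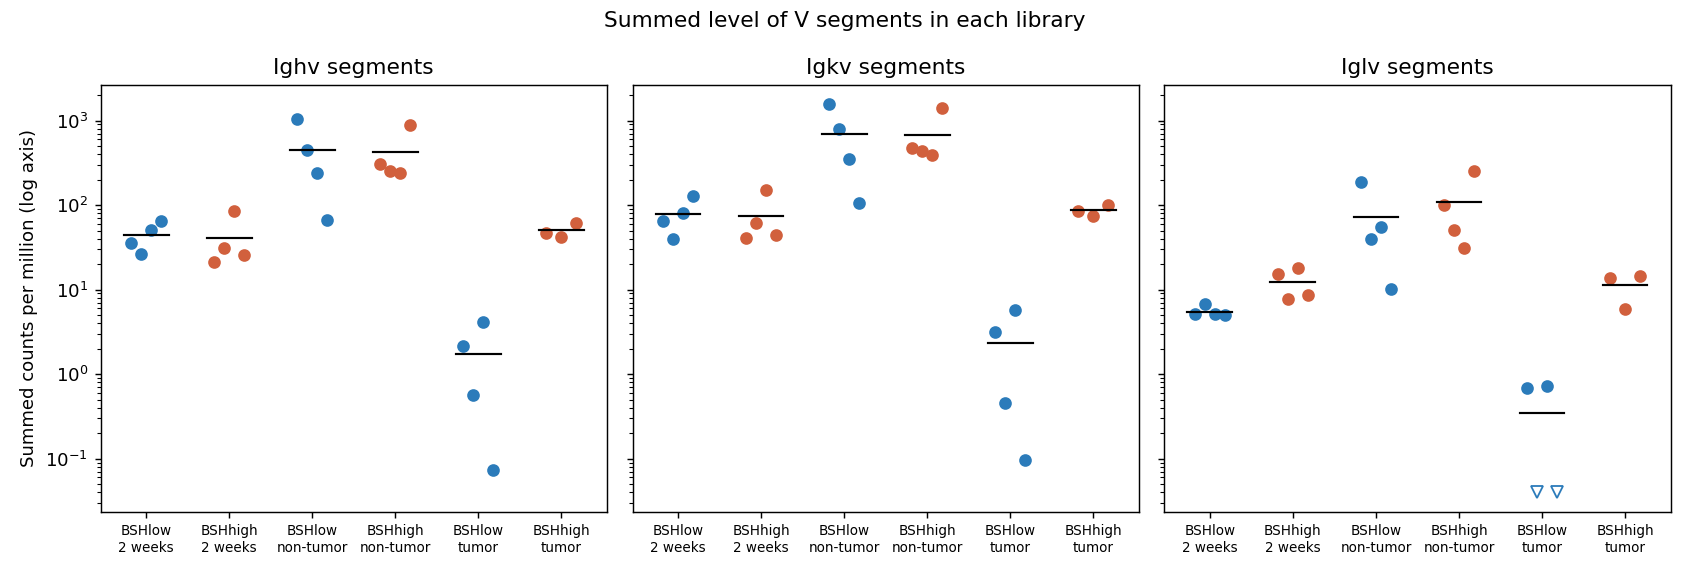
Summed CPM (log axis) of the *Ighv*, *Igkv* and *Iglv* segments in each of the 23 libraries by group, with a black bar at the group mean and open triangles for libraries with 0 *Iglv* counts. In each panel the BSHhigh tumors lie above all BSHlow tumors, and in *Ighv* the BSHlow tumors reach 4.15 CPM while the lowest library of any other group has 21.1 CPM.

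Few V reads were left to describe the BSHlow tumors. Their 4 libraries held 122, 20, 221 and 3 V counts, 366 in all, against 2791, 2731 and 3716 in the BSHhigh tumors. Of the 160 segments, 88 had 0 counts in all 4 BSHlow tumors and none had 3 counts in each of them. In the 3 BSHhigh tumors, 6 segments had 0 counts and 70 had at least 3 in each library.

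Between BSHhigh and BSHlow tumors, 10 segments were higher in BSHhigh and none lower, by edgeR's quasi-likelihood test (Benjamini-Hochberg adjusted p under 0.05 over 15325 genes and an absolute log2 fold change over 1). Only 33 of the 160 segments passed the filter on low counts, and 127 were not tested. Among all genes tested, 0.463% were called higher and 0.0131% lower. With the BSHlow libraries near 0, the 33 could pass mainly through the BSHhigh libraries, so their median log2 fold change of 5.62, beside -0.03 for all genes, is not a value for the 160. The 10 were *Ighv1-53*, *Ighv1-64*, *Ighv5-16*, *Igkv1-110*, *Igkv1-117*, *Igkv10-94*, *Igkv15-103*, *Igkv2-137*, *Igkv4-72* and *Igkv5-48*. Since they were chosen on these same libraries, the gaps between groups described for them below are not separate results.

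*Ighv1-53*, a heavy chain segment of the large Ighv1 family, had 0, 0, 0.0477 and 0 CPM in BSHlow tumors and 4.19, 2.05 and 8.25 CPM in BSHhigh tumors. The groups were far apart, and its log2 fold change was 8.04 ± 0.86 (SE; edgeR adjusted p = 0.0290). As summed counts this was 300 against 1, a ratio of 389 per library size with a 95% counting interval of 69.3 to 15420. *Igkv1-110*, a kappa segment, had 0.196, 0, 0.257 and 0 CPM in BSHlow and 10.99, 6.68 and 15.3 CPM in BSHhigh tumors. Again no library of 1 group reached the other, with a log2 fold change of 6.55 ± 0.75 (edgeR adjusted p = 0.0290) and 682 against 9.38 counts (ratio 94.3, interval 51.5 to 216).

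*Igkv5-48*, whose counts were whole in every library, had 0, 0, 0.0953 and 0 CPM in BSHlow and 1.81, 5.0 and 1.81 CPM in BSHhigh tumors. BSHhigh tumor b stood above the other two, and the log2 fold change was 6.55 ± 0.88 (edgeR adjusted p = 0.0365). *Igkv10-94* had 0.159, 0.0513, 0 and 0 CPM against 1.87, 2.63 and 7.12 CPM, with tumor c the highest and a log2 fold change of 6.12 ± 0.88 (edgeR adjusted p = 0.0406). *Ighv1-64* had 0, 0.103, 0.0953 and 0 CPM against 1.03, 3.75 and 3.24 CPM, with tumor a the lowest of the BSHhigh group and a log2 fold change of 5.59 ± 0.82 (edgeR adjusted p = 0.0421). *Igkv15-103*, also whole in every library and 74.8% identical to its nearest segment, had 0, 0, 0.0477 and 0 CPM against 1.14, 2.10 and 1.91 CPM. It had 109 counts in BSHhigh and 1 in BSHlow tumors (edgeR adjusted p = 0.0290).

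**Figure D2:**
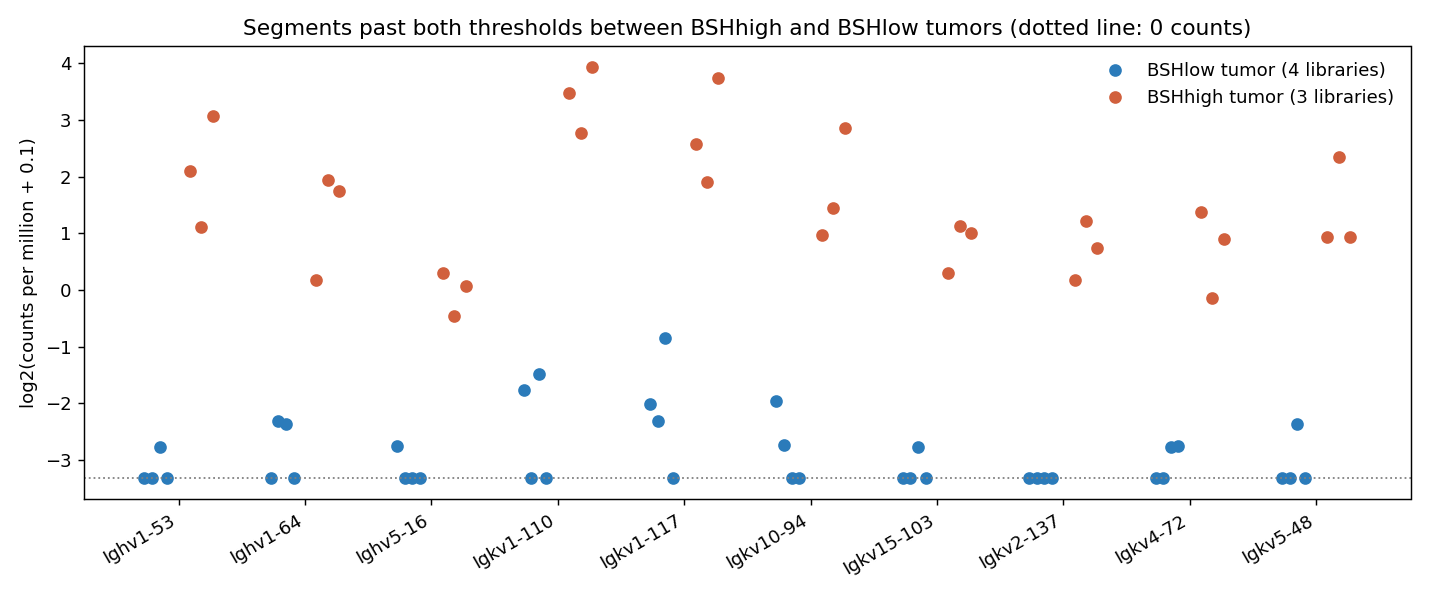
Level of the 10 called segments in each tumor library as log2(CPM + 0.1), BSHlow in blue and BSHhigh in orange, with a dotted line at 0 counts. In none of the 10 do the groups overlap, and most blue points lie on the dotted line. The 10 were chosen by the test on these same libraries, so the lack of overlap is not a separate result.

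Several of the segments with the highest levels did not pass the test. *Igkv10-96* had 0.528, 0, 0.143 and 0 CPM in BSHlow and 8.42, 4.73 and 4.75 CPM in BSHhigh tumors (log2 fold change 5.05 ± 0.92, edgeR adjusted p = 0.0585). *Iglv1*, the main lambda segment, had 0.687, 0, 0.715 and 0 CPM against 11.01, 5.04 and 12.6 CPM (4.72 ± 0.96, edgeR adjusted p = 0.0746). *Ighv1-72* had 0.0981, 0.0513, 0.381 and 0 CPM against 1.96, 1.65 and 3.57 CPM (4.09 ± 0.80, edgeR adjusted p = 0.0643). The groups of these 3 did not overlap either. *Iglv2* and *Iglv3* were too low to be tested, with 0 counts in BSHlow and 56 each in BSHhigh tumors, which is at least 24.2-fold higher when 3 counts over the group are taken as the floor.

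The number called in tumors depended on single libraries. It was 0 when any of the 4 BSHlow tumors, BSHhigh tumor a or BSHhigh tumor b was left out and 10 without tumor c, and DESeq2 called 28 and limma-voom 16. Shares of all genes called under these alternatives are not given here. The adjusted p of *Ighv1-53* ran from 2.4e-09 to 0.102 over 13 such alternatives, with its fold change between 6.97 and 9.63.

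In tumor against non-tumor colon of BSHlow mice, V segments were lower in the tumors. All 44 segments tested were called lower by edgeR, while 116 were not tested, and 17.6% of all genes were called lower. With the BSHlow tumors near 0, the 44 passed the filter on low counts through the non-tumor libraries, so the filter itself favoured this count and it is not a value for the 160. *Ighv8-12* had 652, 5.04, 3.0 and 0.710 CPM in BSHlow non-tumor colon and 0.343, 0, 0.0953 and 0 CPM in the tumors. The groups did not overlap, and the first non-tumor library was far above the others (log2 fold change -10.47 ± 2.82, edgeR adjusted p = 0.0102, and -4.65 without that library). *Ighv1-72* had 48.3, 43.7, 33.5 and 7.74 CPM in the same non-tumor libraries and the tumor values given above. No single library was far above the others, and the segment fell by 7.89 ± 0.82 on the log2 scale (edgeR adjusted p = 4.9e-05). *Ighv2-2* had 23.8, 1.89, 6.73 and 1.61 CPM in non-tumor colon and 0 counts in the tumors, at least 212-fold lower with 3 counts over the group as the floor. *Igkv8-21* had 35.4, 91.0, 47.2 and 0.926 CPM in non-tumor colon and at most 0.103 CPM in a tumor (-9.96 ± 1.56, edgeR adjusted p = 0.000525). The number that passed the filter, and with it the number called, was 79 without non-tumor library 4 and 92, 89, 89 and 92 without tumors 1 to 4.

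In BSHhigh mice the segments were also lower in tumors than in non-tumor colon. Of 124 tested, 94 were called lower and none higher, with a median log2 fold change of -3.11 among the tested, 15% of all genes called lower and 36 segments not tested. In the fit of tumors alone, only 33 segments passed the filter on low counts. Many of the 124 could therefore pass mainly through the non-tumor libraries. The filter itself favoured this count and this median, and neither is a value for the segments as a whole. *Iglv1* had 65.0, 47.1, 21.8 and 165 CPM in non-tumor colon and 11.01, 5.04 and 12.6 CPM in tumors, without overlap (-2.97 ± 0.69, edgeR adjusted p = 0.00639). *Igkv10-96* had 30.3, 34.9, 23.01 and 42.3 CPM against 8.42, 4.73 and 4.75 CPM (-2.46 ± 0.28, edgeR adjusted p = 0.000211), without overlap. The largest fall by the naming rule was that of *Igkv6-20*, from 0.812, 2.43, 1.95 and 12.0 CPM to 0.103, 0.0893 and 0.143 CPM (-5.18 ± 1.14, edgeR adjusted p = 0.00484). *Ighv2-9*, *Igkv13-85*, *Igkv17-121* and *Ighv1-47* followed, each with 4 to 10 counts over the 3 tumors. *Ighv8-12* was not called, at 10.1, 3.24, 6.06 and 10.6 CPM in non-tumor colon and 3.77, 0.134 and 0.763 CPM in tumors (edgeR adjusted p = 0.0526), and its groups overlapped.

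The fall in BSHlow and in BSHhigh mice was compared by an interaction term over the 15 libraries of 12 weeks. No segment of 141 tested passed the thresholds, 65 had an unadjusted p under 0.05, and the smallest adjusted p was 0.0670 (edgeR). The share of all genes under that unadjusted p is not given here, so the 65 cannot be judged against it. Of all genes, 0.972% were called with a larger BSHhigh-to-BSHlow ratio in tumors and 0.00608% with a smaller one. DESeq2 called 28 segments and limma-voom 0. Leaving out 1 library gave 1 call (BSHlow non-tumor library 1, or BSHhigh tumor c), 3 calls (BSHlow non-tumor library 4) or 5 calls (BSHhigh non-tumor library 4). *Ighv1-72* had an interaction log2 value of 4.51 ± 1.09 (edgeR adjusted p = 0.0729) and *Ighv1-53* one of 6.43 ± 1.67 (edgeR adjusted p = 0.0987). The contrasts of tumors and of tissues share tumor and non-tumor libraries, so their values are not independent of each other.

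Neither non-tumor colon at 12 weeks nor normal colon at 2 weeks gave a call between BSHhigh and BSHlow. In non-tumor colon, edgeR called 0 of 129 segments tested (26 with an unadjusted p under 0.05, smallest adjusted p 0.328) and 0.0% of all genes in either direction. limma-voom also called 0, and DESeq2 called 4, which were *Iglv3*, *Igkv4-72*, *Igkv3-12* and *Ighv1-42*, named after their values were seen. At 2 weeks, 0 of 30 segments tested were called (3 with an unadjusted p under 0.05, and 0 by DESeq2 or limma-voom), with 0.00727% of all genes called higher and 0.0% lower. At 2 weeks 130 segments were not tested. For both comparisons, the share of all genes with an unadjusted p under 0.05 is not given here.

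In non-tumor colon the largest log2 fold changes of the segments tested were those of *Iglv3*, higher in BSHhigh, and *Ighv8-12*, lower in BSHhigh (-4.48 ± 1.87, edgeR adjusted p = 0.522, groups overlapping). *Iglv3*, whose counts were whole in every library, had 1.41, 0.687, 0.818 and 0.323 CPM in BSHlow and 34.1, 1.99, 2.85 and 40.4 CPM in BSHhigh mice. The groups did not overlap, but the BSHhigh group split into a high and a low pair (log2 fold change 4.61 ± 1.07, edgeR adjusted p = 0.328, DESeq2 adjusted p = 0.0028). *Iglv2* had 0.224, 0.803, 1.91 and 1.24 CPM in BSHlow and 1.32, 0.947, 6.33 and 48.8 CPM in BSHhigh mice, so that 1 library held most of its counts. *Iglv1* overlapped between the arms, at 184, 37.7, 52.1 and 8.64 CPM in BSHlow and 65.0, 47.1, 21.8 and 165 CPM in BSHhigh mice (0.07 ± 0.84, edgeR adjusted p = 0.988).

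From 2 to 12 weeks, V segments rose on average in colon of both arms. The later libraries were labelled non-tumor tissue, and the tissue differed in smooth muscle as given above. Summed *Igkv* of BSHlow mice overlapped between the times, at 39.4 to 128 CPM at 2 weeks and 107 to 1553 CPM at 12 weeks. Summed *Ighv* and *Iglv* did not overlap in BSHlow mice, nor did any locus in BSHhigh mice. In BSHlow mice, 33 of 72 segments tested were called higher (15.1% of all genes) and none lower (7.59%), with 88 not tested. In BSHhigh mice, 79 of 97 tested were called higher (15.9%) and none lower (7.34%), with 63 not tested. In the fit of 2-week libraries alone, only 30 segments passed the filter on low counts. Many of the 72 and of the 97 could therefore pass mainly through the 12-week libraries. The filter itself favoured both counts of higher segments, and they are not values for the segments as a whole. B cell markers, a list of 10 genes including *Ms4a1*, summed to 2.58 to 82.2 CPM at 2 weeks and 15.6 to 461 CPM at 12 weeks in non-tumor colon. Their part in the rise was not tested.

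*Ighv1-72* was the clearest of the rising segments in BSHlow mice, from 0.303, 0.250, 0.284 and 0.774 CPM at 2 weeks to 48.3, 43.7, 33.5 and 7.74 CPM at 12 weeks. Its lowest 12-week library was above every 2-week library (log2 fold change 6.28 ± 0.67, edgeR adjusted p = 0.000121). In BSHhigh mice it went from 0.363, 0.221, 5.57 and 0 CPM to 14.2, 19.7, 13.4 and 51.7 CPM (3.97 ± 0.97, edgeR adjusted p = 0.00766), and 1 library already held it at 2 weeks. *Igkv4-63*, a kappa segment with whole counts, rose the most in BSHhigh mice, from 0.182, 0, 0 and 0 CPM to 10.9, 2.80, 0.909 and 20.4 CPM (7.49 ± 1.36, edgeR adjusted p = 0.00157). In BSHlow mice the same segment had 0.0758, 0, 0 and 0.563 CPM at 2 weeks and 1.11, 1.37, 0.477 and 0 CPM at 12 weeks, where the groups overlapped. *Ighv5-16*, *Ighv10-3*, *Ighv1-50* and *Igkv13-85* also rose in BSHhigh mice, each from at most 0.221 CPM in a 2-week library. In BSHlow mice *Ighv2-2*, *Ighv1-66*, *Ighv5-17* and *Igkv15-103* rose as well, with *Igkv15-103* at 145, 6.30, 3.88 and 1.29 CPM at 12 weeks and 0.303, 0.167, 1.04 and 1.12 CPM at 2 weeks. Its log2 fold change was 5.86 ± 1.64 (edgeR adjusted p = 0.0171), 2.51 without the first non-tumor library, and it was called in 10 of 14 alternatives. The number of rising segments in BSHlow mice was 64 without non-tumor library 4 and 50 without 2-week library 4.

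**Figure D3:**
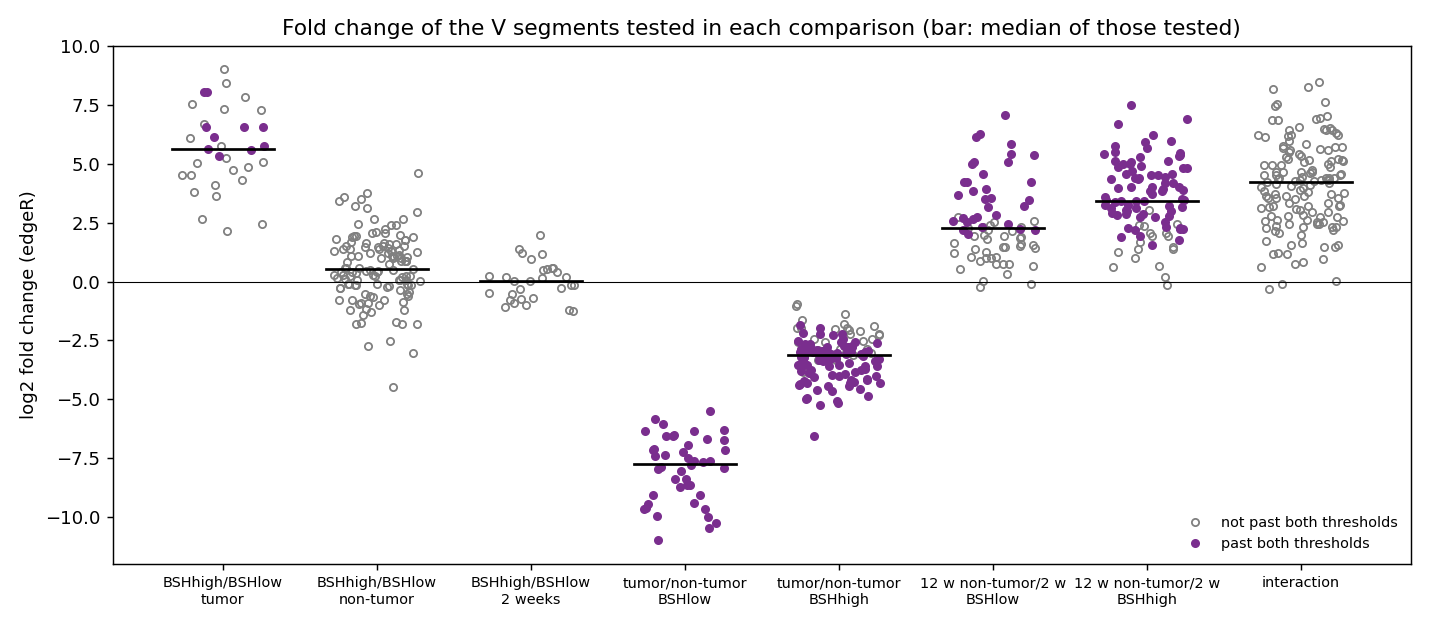
edgeR log2 fold change of each V segment tested in the 8 comparisons, filled where both thresholds were passed, with a bar at the median of the segments tested. The tested segments lie above 0 between tumors, around 0 between arms in non-tumor and 2-week colon, below 0 between tumor and non-tumor tissue and mostly above 0 between 12 and 2 weeks. Between tumors, between tissues and between times, the filter on low counts favoured the direction seen.

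The segments in use were counted next. In non-tumor colon, 100 segments of BSHlow and 121 of BSHhigh mice had at least 3 counts in every library, against 31 and 31 at 2 weeks and 70 in BSHhigh tumors. Over the 19 libraries other than the BSHlow tumors, 15 segments had at least 3 counts in all, 103 in 10 to 18 and 42 in 1 to 9. The 15 were *Ighv1-19*, *Ighv1-26*, *Ighv1-55*, *Ighv1-64*, *Igkv1-110*, *Igkv1-117*, *Igkv1-135*, *Igkv10-96*, *Igkv16-104*, *Igkv5-43*, *Igkv5-48*, *Igkv6-15*, *Igkv6-17*, *Igkv8-30* and *Iglv1*. Such numbers follow the number of V counts. Thinned to 854 V counts, the number of segments seen was 83.2 to 114 in BSHlow and 114 to 120 in BSHhigh non-tumor colon, 102 to 114 in BSHhigh tumors and 89.6 to 107 at 2 weeks, so most of the difference in plain numbers between tissues was gone. The thinning was chosen after seeing the data.

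Some segments belonged to single libraries. *Igkv4-71* had 110 counts in BSHhigh non-tumor library 1, 42.8 in BSHhigh tumor a and 0 in the other 21 libraries. *Igkv9-129* had 94 counts in BSHlow non-tumor library 2 and at most 3 elsewhere, and *Igkv10-95* had 96.9 in BSHlow non-tumor library 1 and at most 3 elsewhere. *Igkv4-71*, *Igkv9-129* and *Igkv10-95* were among the 6 segments with at least 3 counts in at most 4 of the 23 libraries, with *Ighv1-84*, *Ighv2-4* and *Ighv8-5*. They were picked after their values were seen.

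Among the 19 libraries outside the BSHlow tumors, 1 library was far less even than the rest. Evenness is given as the effective number of segments, the exponential of Shannon's entropy, which equals the number of segments when all have the same share. Shares are of counts and are not corrected for length, since coding lengths ran only from 338 to 394 bases. In BSHlow non-tumor library 1, *Ighv8-12* took 63.1% of *Ighv* counts (652 CPM, against 0.710 to 10.6 CPM in the other 7 non-tumor libraries) and the effective number of *Ighv* segments was 6.65, against 33.7 to 45.0 in the others. In the same library *Igkv10-96* took 43.9% and *Igkv1-110* 15.2% of *Igkv* counts, and the effective number of *Igkv* segments was 10.6, against 25.3 to 35.1. *Iglv1* took 99.1% of its *Iglv* counts.

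That library also stood apart in some of the 12 constant region genes looked at, and those named first were picked for their values in it. The lambda constant gene *Iglc3* had 208 CPM there and 2.19 to 18.4 CPM in the other non-tumor libraries, and *Ighg2b*, the constant region of an IgG class, had 173 CPM against 2.45 to 79.7 CPM. Others did not stand out there, such as *Iglc1* (48.5 CPM, against 10.1 to 140 CPM) and *Iglc2* (26.2 CPM, against 6.06 to 143 CPM). Without this library, edgeR called 50 of 50 segments tested lower in BSHlow tumors and 27 of 78 higher than at 2 weeks. The filter on low counts favoured both counts, as in the full groups, and shares of all genes called in these fits are not given here. The fall of *Ighv8-12* in BSHlow tumors then went from -10.47 to -4.65 on the log2 scale (edgeR adjusted p = 0.00619).

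**Figure D4:**
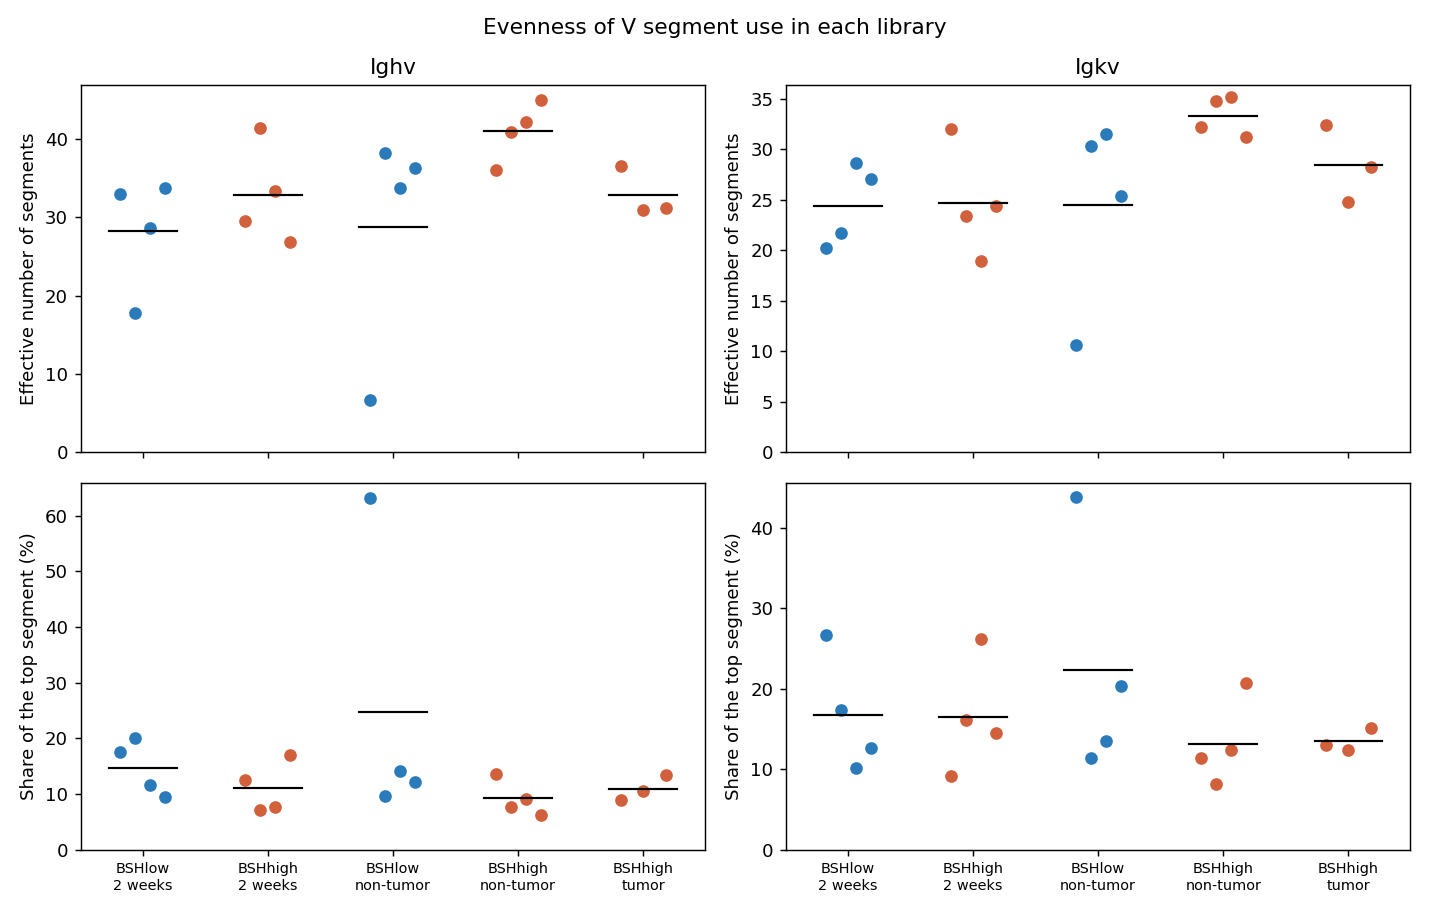
Effective number of segments (top) and share in percent of the top segment (bottom) for *Ighv* and *Igkv* in the 19 libraries outside the BSHlow tumors, with a bar at the group mean. BSHlow non-tumor library 1 has the lowest effective number (6.65 and 10.6) and the highest top share (63.1% and 43.9%) of all in both loci.

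In BSHhigh mice the effective numbers of the 3 tissues overlapped in both loci. For *Ighv* they averaged 41.0 ± 3.7 (SD, n = 4) in BSHhigh non-tumor colon, 32.9 ± 3.2 (n = 3) in BSHhigh tumors, 32.8 ± 6.3 (n = 4) in BSHhigh and 28.3 ± 7.4 (n = 4) in BSHlow colon at 2 weeks. For *Igkv* the same groups averaged 33.3 ± 1.9, 28.5 ± 3.8, 24.6 ± 5.4 and 24.4 ± 4.0. BSHlow non-tumor colon, library 1 included, averaged 28.7 ± 14.8 for *Ighv* and 24.4 ± 9.6 for *Igkv* (n = 4). It overlapped with BSHlow colon at 2 weeks, with differences of 0.46 and 0.05. The arms overlapped at 2 weeks. All BSHlow libraries of 2 weeks lay below all BSHhigh non-tumor libraries in both loci, but there arm and time both differ. These numbers were not thinned, on 232 to 1154 *Ighv* counts at 2 weeks and 1021 to 13937 in non-tumor colon. The BSHlow tumors, with 3 to 221 V counts, are too shallow for such a number. On 44 *Ighv* and 64 *Igkv* counts, the top segments of their first library were *Ighv1-26* (27.6%) and *Igkv4-55* (17.2%), followed by *Ighv8-12* (16.1%) and *Igkv10-96* (16.8%).

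The segments at the top differed between libraries. Over the 19 libraries, 13 different segments were the top *Ighv* segment, among them *Ighv8-12* in BSHlow non-tumor library 1, *Ighv1-72* in BSHlow libraries 2 (9.74%) and 3 (14.1%) and BSHhigh library 2 (7.77%), *Ighv5-9* in BSHhigh library 1 (13.7%) and *Ighv1-53* in BSHhigh tumors a (8.99%) and c (13.4%). At 2 weeks the highest share was that of *Ighv6-6* with 20.1% in BSHlow library 2, and in BSHhigh mice that of *Ighv1-5* with 17.0% in library 4. *Igkv1-110* or *Igkv1-117* was the top kappa segment in 11 of the 19 libraries. *Igkv1-110* took 2.14% to 26.2% and *Igkv1-117* took 2.61% to 26.8% of *Igkv* counts, and these close relatives share reads.

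*Ighv1-72* took a larger share of *Ighv* counts at 12 weeks than at 2 weeks. It held 4.68%, 9.74%, 14.1% and 11.7% in BSHlow and 4.66%, 7.77%, 5.55% and 5.80% in BSHhigh non-tumor colon. At 2 weeks it held 0.858%, 0.943%, 0.567% and 1.21% in BSHlow and 1.72%, 0.708%, 6.50% and 0% in BSHhigh mice. In the BSHhigh tumors it held 4.22%, 3.92% and 5.80%. The times did not overlap in BSHlow mice and overlapped in BSHhigh mice through 1 library.

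By family, Ighv1, with 43 of the segments, held a median of 63.6% of *Ighv* counts over the 19 libraries, and 19.3% in BSHlow non-tumor library 1, the lowest. Igkv1, with 5 segments, held a median of 24.6% of *Igkv* counts (12.0% to 43.8%). Igkv4, with 18 segments, was picked after its values were seen. It held 18.2 ± 3.1% in BSHhigh tumors, and 13.9 ± 2.0% in BSHhigh and 9.78 ± 3.8% in BSHlow non-tumor colon. At 2 weeks it held 7.66 ± 2.2% in BSHhigh and 9.14 ± 0.60% in BSHlow colon. Some other families went the other way, such as Igkv3, with 1.77 ± 0.48% in BSHhigh tumors and 3.73 ± 1.5% in BSHhigh non-tumor colon. Segments nearer the joining segments than the median held 36.9% to 51.8% of *Ighv* counts in BSHhigh tumors and 30.8% to 51.3% at 2 weeks, and these ranges overlapped.

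Lambda segments were a minority of light chain V counts in every library. They made up 4.71% to 13.6% in BSHlow and 7.28% to 17.7% in BSHhigh non-tumor colon, 7.43% to 13.9% in BSHhigh tumors, 3.76% to 14.5% in BSHlow and 10.6% to 26.9% in BSHhigh colon at 2 weeks. The highest share, 26.9%, had an exact 95% binomial interval of 23.4% to 30.5%, and the lowest, 3.76%, one of 2.95% to 4.72%. The ranges of the arms overlapped in non-tumor colon and at 2 weeks. Among lambda segments, *Iglv3* took 33.9% in BSHhigh non-tumor library 1, 16.4% in BSHhigh tumor a and 40.6% in BSHhigh library 2 of 2 weeks. It took at most 15.9% in the other libraries.

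V use in each BSHhigh tumor was closest to that of 1 BSHhigh non-tumor library. Likeness was measured as Spearman's rho of the shares across the segments of a locus, over 171 pairs of the 19 libraries, and segments are not independent points. In both loci the 3 highest pairs were the same, non-tumor library 1 with tumor a (rho 0.861 for *Ighv* and 0.841 for *Igkv*), library 4 with tumor c (0.781 and 0.818) and library 3 with tumor b (0.740 and 0.778). The next pair reached 0.674 and 0.704, and the medians were 0.454 and 0.547. For comparison, the BSHhigh non-tumor libraries reached 0.493 to 0.656 with each other for *Ighv*, and the BSHhigh tumors 0.442 to 0.590.

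Some segments with a high share in a tumor, picked after their values were seen, are given as examples for tumors a and b. *Ighv5-9* held 13.7% of *Ighv* counts in BSHhigh non-tumor library 1 and 7.99% in tumor a, and 0% to 3.43% in the other 17 libraries. *Ighv1-7* held 9.12% in BSHhigh non-tumor library 3 and 10.6% in tumor b, and 0.888% and 1.38% in the other BSHhigh tumors, but it was also at 8.79% and 9.53% in BSHlow non-tumor libraries 2 and 3. *Igkv4-71* was found in library 1 and tumor a alone, as given above. Using the segments with whole counts only (25 *Ighv* and 28 *Igkv*, an alternative chosen after seeing the data), the 3 pairs were no longer the 3 highest of the 171. Among the 4 BSHhigh non-tumor libraries, each tumor still had its highest rho with the same one (0.775 and 0.850 for a, 0.628 and 0.782 for b, 0.731 and 0.704 for c), but for *Ighv* library 3 was closer to tumor a (0.695) than to b, and for *Igkv* some pairs with 2-week libraries were higher than those of b and c (up to 0.788). The labels do not state which libraries share a mouse, and no pairs were used in a test.

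**Figure D5:**
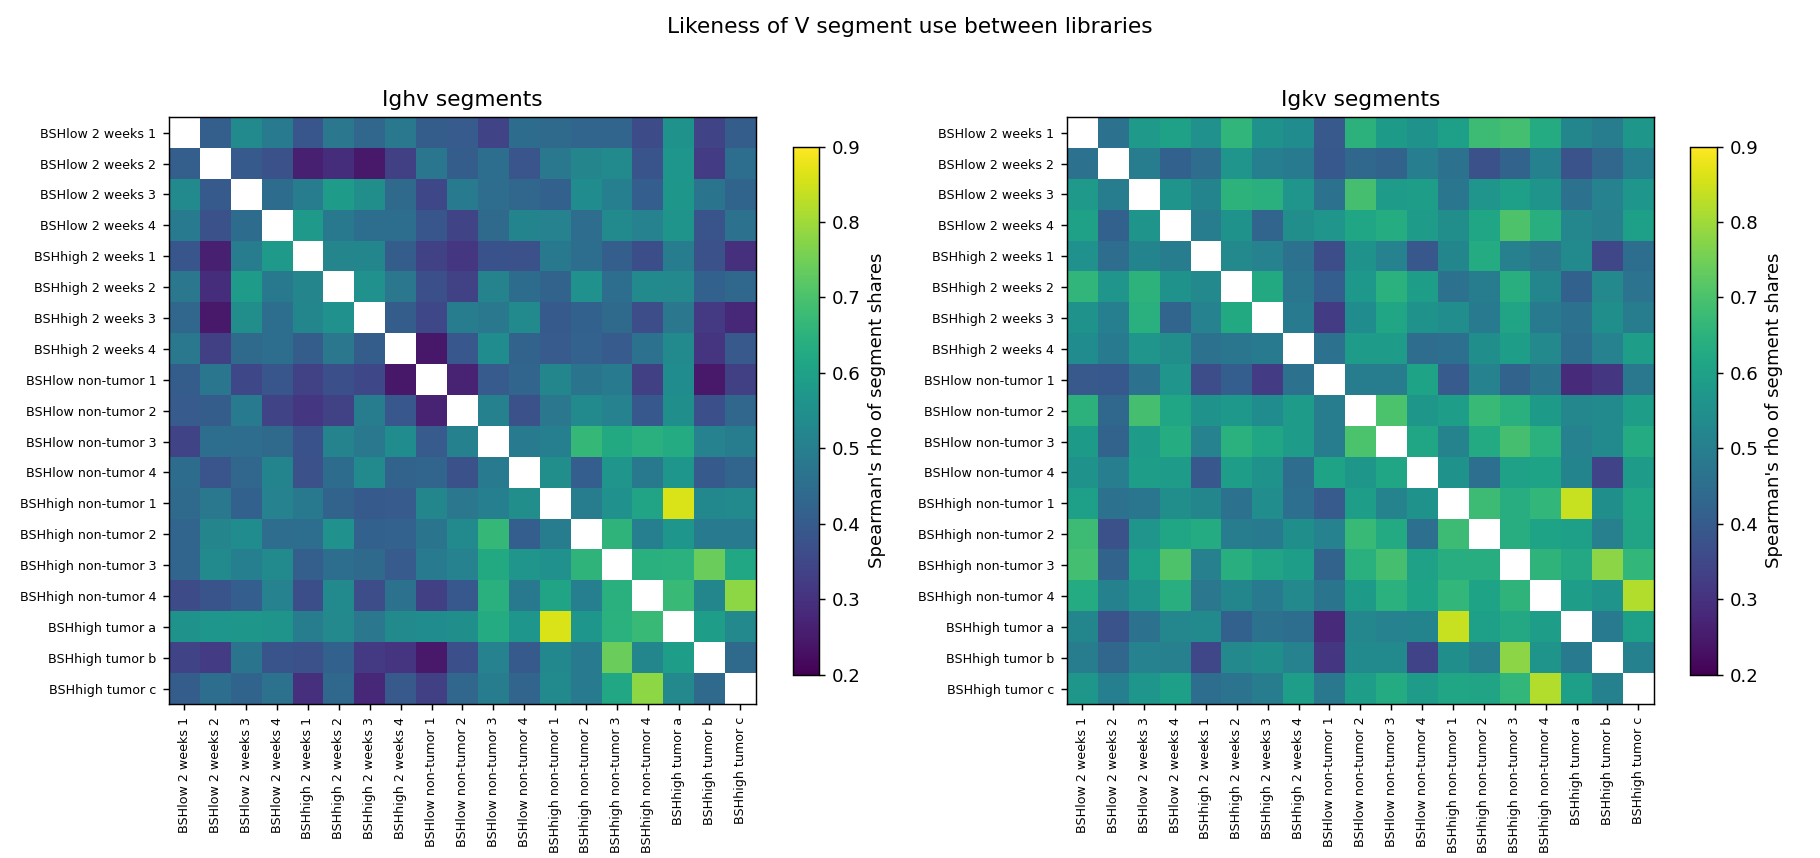
Spearman's rho of segment shares for each pair of the 19 libraries outside the BSHlow tumors, for *Ighv* (left) and *Igkv* (right). The 3 brightest cells in both panels join BSHhigh non-tumor libraries 1, 4 and 3 with BSHhigh tumors a, c and b.

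The shallow BSHlow tumors gave lower values. For *Ighv*, BSHlow tumor 1 was most like BSHlow non-tumor library 1 (rho 0.403 on 44 counts) and tumor 2 most like library 2 (0.339 on 11 counts), while tumors 3 and 4 were most like libraries 2 (0.308) and 1 (0.236). For *Igkv* they were most like other libraries, BSHlow non-tumor library 2 (0.512), BSHlow library 3 of 2 weeks (0.351), BSHhigh non-tumor library 2 (0.664) and BSHhigh non-tumor library 3 (0.222), in that order.

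Constant region genes, which share an RNA with the V segments, were also low in BSHlow tumors. *Igha*, the constant region of IgA, had 12.5, 2.15, 24.6 and 1.51 CPM in BSHlow and 439, 374 and 613 CPM in BSHhigh tumors (log2 fold change 5.53 ± 0.91, edgeR adjusted p = 0.0511), without overlap. Of the 12 constant genes listed, 7 were tested in tumors and 2 were called higher, *Igkc* (5.41 ± 0.82, edgeR adjusted p = 0.0446) and *Iglc2* (5.46 ± 0.63, edgeR adjusted p = 0.0290). In BSHlow mice all 10 tested were lower in tumors, and in BSHhigh mice all 11 tested. *Ighv* counts amounted to 12.1% to 17.5% of *Igha* in non-tumor colon, 10.1% to 11.3% in BSHhigh tumors and 7.30% to 11.8% at 2 weeks. The 14 joining segments of the table were at 0 in every library.

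*Jchain*, which links IgA dimers, had 3.04, 0.821, 3.91 and 0.0977 CPM in BSHlow and 87.6, 86.7 and 116 CPM in BSHhigh tumors (5.60 ± 0.70, edgeR adjusted p = 0.0343). It was the only 1 of 10 plasma cell genes tested that was called. Of the others, *Mzb1* (2.92), *Irf4* (2.59), *Xbp1* (0.21) and *Derl3* (0.13) had log2 fold changes above 0. Those of *Prdm1* (-0.47), *Eaf2* (-0.34), *Sdc1* (-0.22), *Txndc5* (-0.12) and *Creld2* (-0.05) were below 0. The 11 plasma cell genes listed summed to 927 to 1335 CPM in BSHlow and 1080 to 1288 CPM in BSHhigh tumors, which overlapped. Most of that sum came from *Sdc1* (424 to 670 CPM in BSHlow and 460 to 626 CPM in BSHhigh tumors), *Txndc5* and *Xbp1*. It therefore hardly reflects low genes such as *Mzb1*, which had at most 0.343 CPM in BSHlow and at least 1.12 CPM in BSHhigh tumors. Among 8 genes tested for recruitment and support of IgA plasma cells, 3 were called higher in BSHhigh tumors, *Ccl28*, a chemokine for IgA plasma cells (4.13 ± 0.53, edgeR adjusted p = 0.0344), *Pigr* (2.51 ± 0.36, edgeR adjusted p = 0.0406) and *Madcam1*, a homing ligand on vessels (2.91 ± 0.39, edgeR adjusted p = 0.0365). *Ccl28* was 2.01, 2.62, 2.53 and 1.12 CPM in BSHlow and 62.2, 34.7 and 12.9 CPM in BSHhigh tumors. The interaction was called for *Igkc*, *Jchain*, *Pigr* and *Ccl28*, while no V segment was.

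None of 6 tested of the 12 B cell and follicle genes was called by edgeR, and *Ighm*, the constant region of IgM, had 3.19, 0.513, 3.19 and 0.781 CPM in BSHlow and 13.3, 7.54 and 3.86 CPM in BSHhigh tumors (2.08 ± 0.69, edgeR adjusted p = 0.250). The 10 B cell markers summed to 1.54 to 5.34 CPM in BSHlow and 6.34 to 20.9 CPM in BSHhigh tumors. T cell markers summed to 7.28 to 21.2 CPM and 34.1 to 47.9 CPM, and squamous epithelium markers to 62.4 to 186 CPM and 34.8 to 44.8 CPM, and neither pair of groups overlapped. Of the markers tested, edgeR called 0 of 8 for T cells and 0 of 4 for squamous epithelium. The 9 colon epithelium markers summed to 3683 to 6345 CPM in BSHlow and 4785 to 6952 CPM in BSHhigh tumors, which overlapped. Of these 9, 2 were called higher in BSHhigh tumors, and *Krt20*, a keratin of differentiated epithelium, had 22.0, 23.9, 30.2 and 10.7 CPM in BSHlow and 456, 147 and 80.3 CPM in BSHhigh tumors, beside *Ccl28* and *Pigr*, which epithelial cells express. The part of these cells in the tumor differences was not tested. Of the 7 recombination and hypermutation genes, *Rag2* had 0 counts in every library and *Rag1* at most 0.182 CPM, and none of the 3 tested was called in any of the 8 comparisons.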

How the data were processed

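RNA was taken from mouse colon and colon tumors, and libraries were made with an Illumina stranded kit and sequenced as pairs (the labels name a total RNA kit and the study's methods an mRNA kit). Per the submitters' processing notes and the study's methods, the authors removed adapters (cutadapt) before alignment by STAR on the mm10 genome, and RSEM then gave expected counts per gene, in which reads that match several genes are split. The deposited values are these expected counts, not normalized, for 55449 genes in 23 libraries. Versions of these tools are not given in the sources used here. One row with no gene name was left out of library sizes and tests.

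The headers of the 3 BSHhigh tumor columns repeat those of BSHlow tumors. They were matched to their group through the study's supplementary table, where all 1996 values compared were equal, and the group has no replicate numbers.

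Expected counts were rounded for testing. Each comparison was fitted on its own libraries with edgeR 4.0.16 (TMM scaling, filterByExpr, quasi-likelihood test) in R 4.3.3, with Benjamini-Hochberg adjustment over all genes tested, and genes were called where the adjusted p was below 0.05 and the log2 fold change was above 1 in size. The interaction used the 15 libraries of 12 weeks. CPM used TMM sizes over 23 libraries, and log2 levels a pseudocount of 0.1. DESeq2 1.42.0, limma-voom (limma 3.58.1), other scalings and filters, blocking on the replicate number and the omission of single libraries were the alternatives. The fit was tested on simulated data. Segments were named by level (the 5 *Ighv* and 5 *Igkv* with the highest mean CPM and *Iglv* with at least 1 CPM) and by comparison (up to 5 per direction with the largest called fold change and groups without overlap). The members and gene lists were chosen with earlier results of these data known. For libraries with the same replicate number, correlations of deviations ran from -0.24 to 0.33 over 15266 genes. These cannot show whether tumor and non-tumor libraries of the same number came from the same mouse, and the main fits were not paired. Intervals and floors cover counting error only. Coding sequences came from GENCODE M21.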

Additional observations from a re-analysis of the deposited data

Results flagged for a closer look

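In 100 groups of 4 libraries, the library farthest from the rest was compared with the group's range by Dixon's criterion at its 95% critical value, and 22 values passed. Chance flags about 1 in 20 groups, and many of the values below come from the same few libraries.

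BSHlow non-tumor library 1 stood apart through *Ighv8-12* (652 CPM and 63.1% of *Ighv* counts, with 6.65 effective *Ighv* segments), *Igkv10-96* (681 CPM), *Igkv1-110* (235 CPM) and *Igkv15-103* (145 CPM). BSHhigh non-tumor library 4 was far above its group in summed *Ighv* (891 CPM), summed *Igkv* (1409 CPM), *Ighv1-72* (51.7 CPM), *Igkv1-110* (293 CPM) and *Iglv2* (48.8 CPM).

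At 2 weeks, BSHhigh library 3 stood apart in summed *Ighv* (85.7 CPM), *Ighv8-12* (4.82 CPM), *Ighv1-72* (5.57 CPM), *Igkv10-96* (8.60 CPM) and *Igkv1-110* (39.7 CPM). BSHhigh library 2 stood apart in *Iglv3* (3.16 CPM). In BSHlow mice it was library 2 in summed *Iglv* (6.67 CPM), library 4 in *Ighv1-72* (0.774 CPM) and library 1 in *Ighv1-26* (0.682 CPM). In BSHlow tumor 3, *Ighv1-53* and *Igkv15-103* each had 0.0477 CPM, which is 1 count, while the other BSHlow tumors had 0.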

How the results depend on the processing

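No value changed sign past its threshold. Of 129 alternative counts of called segments, 94 stayed within 1.5 times the reported count, and of 348 alternative fold changes of named segments, 306 kept their side of the threshold and 42 fell below it. Between tumors (10 called), DESeq2 called 28, limma-voom 16, no filter 33, 1 fit of the 15 libraries of 12 weeks 23, and leaving out segments with counts that were not whole 4. Leaving out 1 library gave 0 to 10, with 0 for BSHlow tumors 1 to 4 and BSHhigh tumors a and b. In non-tumor colon DESeq2 called 4. For tumor against non-tumor in BSHlow mice (44), no filter gave 150, the 15 libraries 137, whole counts only 8, and leaving out 1 library 45 to 92. In BSHhigh mice (94), whole counts only gave 34 and leaving out 1 library 64 to 87. The interaction (0) gave 28 with DESeq2, 2 with no filter and 0 to 5 without 1 library. For 12 against 2 weeks in BSHlow mice (33), limma-voom gave 13, no filter 77, all 23 libraries 78, whole counts only 3 and leaving out 1 library 27 to 64. In BSHhigh mice (79), no filter gave 119, whole counts only 19 and leaving out 1 library 70 to 105. Whole counts only and no filter change how many segments are tested. Shares of all genes called under the alternatives are not given here or above. The cause of the other shifts was not tested.

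With a replicate block, the counts were 0 in non-tumor colon, 0 at 2 weeks, 44 for tissue in BSHlow mice, and 23 (BSHlow) and 72 (BSHhigh) for 12 against 2 weeks. For tumor and non-tumor libraries, the labels do not say whether a shared replicate number means a shared mouse. *Igkv15-103* in BSHlow mice over time (log2 4.08) was the 1 named call lost under the block. No paired analysis was possible because the BSHhigh tumor columns carry no numbers, for the comparisons with that group.

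With whole counts only, which leaves *Iglv3* for lambda, the *Iglv* log2 difference was 2.81 between tumors, 3.54 in non-tumor colon, -3.04 for BSHlow tissue and 4.45 for BSHhigh time. The *Ighv* difference between arms at 2 weeks was 0.62 (reported -0.26, groups overlapping). The effective number in BSHhigh tumors minus non-tumor colon was -8.13 for *Ighv* (-1.24 with whole counts, -3.21 with a minimum of 500 summed counts) and -4.86 for *Igkv* (-0.365 with whole counts). The number of segments with at least 3 counts differed by 9.75 between arms in non-tumor colon (21.5 at 10 counts). In BSHhigh tumors minus non-tumor colon it was -35.7 (-21.1 at 1 count, -60.6 at 10 counts, -7.33 with the minimum of 500, -12.2 with whole counts, -9.37 thinned). For 12 minus 2 weeks it was 54 in BSHlow mice (35.8 at 1 count, 20 with the minimum of 500 and 20 with whole counts, 5.36 thinned). In BSHhigh mice it was 66.5 (42.3 at 1 count, 91.5 at 10 counts, 24 with the minimum of 500, 24.5 with whole counts, 15.8 thinned). The 366 V counts of the BSHlow tumors limit what can be said of single segments there.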
